A study of Mus musculus with 3 samples.

Results

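Genes of cholesterol synthesis, uptake and lipoprotein handling were examined in 3 subsets of mouse splenic dendritic cells (DC). Of 31 listed genes, 28 had a probe set that the array's annotation assigned to that gene symbol, among 18194 genes named in this way, and these 28 had 62 probe sets. Array signals of Acat2, Nr1h2 and Soat1 were not analysed here. The subsets were plasmacytoid DC (pDC), CD11b+ conventional DC (cDC) and CD8+ cDC, all sorted by flow cytometry from the spleens of healthy, naïve female C57bl/6 mice aged 6 to 8 weeks after bead depletion of T and B cells. Each subset had 1 Affymetrix array, hybridised with RNA from a pool of 5 to 8 mice that was amplified from 20 ng. No array had a replicate, so no spread between samples, standard error or p-value can be given, and sort, pool, amplification and hybridisation cannot be told apart from the cell type.

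Cells make cholesterol from acetyl-CoA through mevalonate, isoprenoid diphosphates, squalene and lanosterol. The pathway is driven by sterol regulatory element-binding proteins (SREBPs), which Scap escorts from the endoplasmic reticulum to the Golgi when membrane sterol is low and which Insig proteins hold back when it is high. Liver X receptors (LXRs) sense oxysterols and act in the other direction, by raising export genes and the ubiquitin ligase Idol, which degrades lipoprotein receptors. In plasmacytoid cells, which secrete large amounts of type I interferon, the sterol pathway and interferon signalling are known to influence each other.

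Values are the deposited array intensities on a linear scale, called signals here. A background level of 111 was taken from 87 probe sets of taste, olfactory and related chemosensory receptor genes, which spleen cells should not express, and values under it were set to it. Genes counted as higher in a subset from 2-fold over the other array, provided that the brighter value exceeded background, and a fold against an array at background is written as at least that size. Each gene was read at its brightest probe set. Between the brightest and the second probe set of a gene, the log2 difference of pDC and CD11b+ cDC varied with an SD of 0.86 over 4830 genes, that of pDC and CD8+ cDC with 0.89, and that of the cDC subsets with 0.74. This spread describes probe sets on the same arrays, not animals.

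The arrays carried the markers of their labels. All 9 measured pDC markers were brightest on the pDC array, all 7 CD8+ cDC markers on the CD8+ cDC array and 6 of 7 CD11b+ cDC markers on the CD11b+ cDC array, while 0 of 8 general cDC markers were brightest in pDC. The marker lists were chosen with earlier results of these data known, so these counts describe the arrays and do not test their labels. Of 7 measured T cell markers, 5 lay at background on every array, among them Cd3d, Cd3e and Cd3g, while Il7r gave 152617 in pDC against 5422 in CD11b+ cDC and 2739 in CD8+ cDC, and Cd5 was brightest in CD11b+ cDC at 2832. Of 7 B cell markers, 4 lay at background on every array, among them Cd79a and Pax5, while Cd79b was brightest in pDC at 10103 and Ms4a1 gave 19147 in CD8+ cDC and 11046.5 in CD11b+ cDC against 223 in pDC. The ratio of the 3' to the 5' control probe set of Actb, a measure of RNA integrity and amplification, was 5.71, 2.91 and 4.08 on the pDC, CD11b+ cDC and CD8+ cDC arrays, and that of Gapdh was 16.2, 9.68 and 17.6. Both were lowest in CD11b+ cDC, and their part in the differences was not tested. When the arrays were instead scaled on hybridisation spike-ins, the median log2 difference of all genes was -0.30 between pDC and CD11b+ cDC, 0.65 between pDC and CD8+ cDC and -0.95 between CD8+ and CD11b+ cDC (the first minus the second). The share of all genes called 2-fold higher and lower was then 10.7% and 19.9%, 33.7% and 9.73%, and 3.88% and 45.4% in these comparisons. Differences are therefore relative to the bulk of genes.

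The pDC array had the highest signals for most genes of cholesterol synthesis, for the SREBP partners Insig1 and Scap, and for the lipoprotein genes Lrp8 and Pltp. Apoe, the apolipoprotein that carries lipid between cells, and Mylip, the gene of Idol, were lowest in pDC. Between the cDC subsets, 5 of the 9 members called on the deposited scale were uptake and lipoprotein genes, against 5 of 14 with spike-in scaling. That group had 6 members above background. Of all genes, 9.86% were called higher and 10.3% lower in CD8+ than in CD11b+ cDC. With spike-in scaling these shares were 3.88% and 45.4%. Of the 26 members above background on at least 1 array, 17 were higher in pDC than in CD11b+ cDC, where 15.0% of all genes above background were, and 5 were lower, where 14.3% of all genes were. Against CD8+ cDC, 14 were higher in pDC (16.0% of all genes) and 2 lower (14.8% of all genes). Higher in pDC than on both cDC arrays were 13 of 26 members, or 50.0%, against 10.4% of all genes, and Apoe and Mylip were lower than on both, where 8.56% of all genes were. The median log2 difference of the members was 1.40 against CD11b+ cDC and 1.17 against CD8+ cDC, with medians over all genes of 0.01 and 0.00. Both comparisons share the pDC array, so they are not separate evidence.

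**Figure D1:**
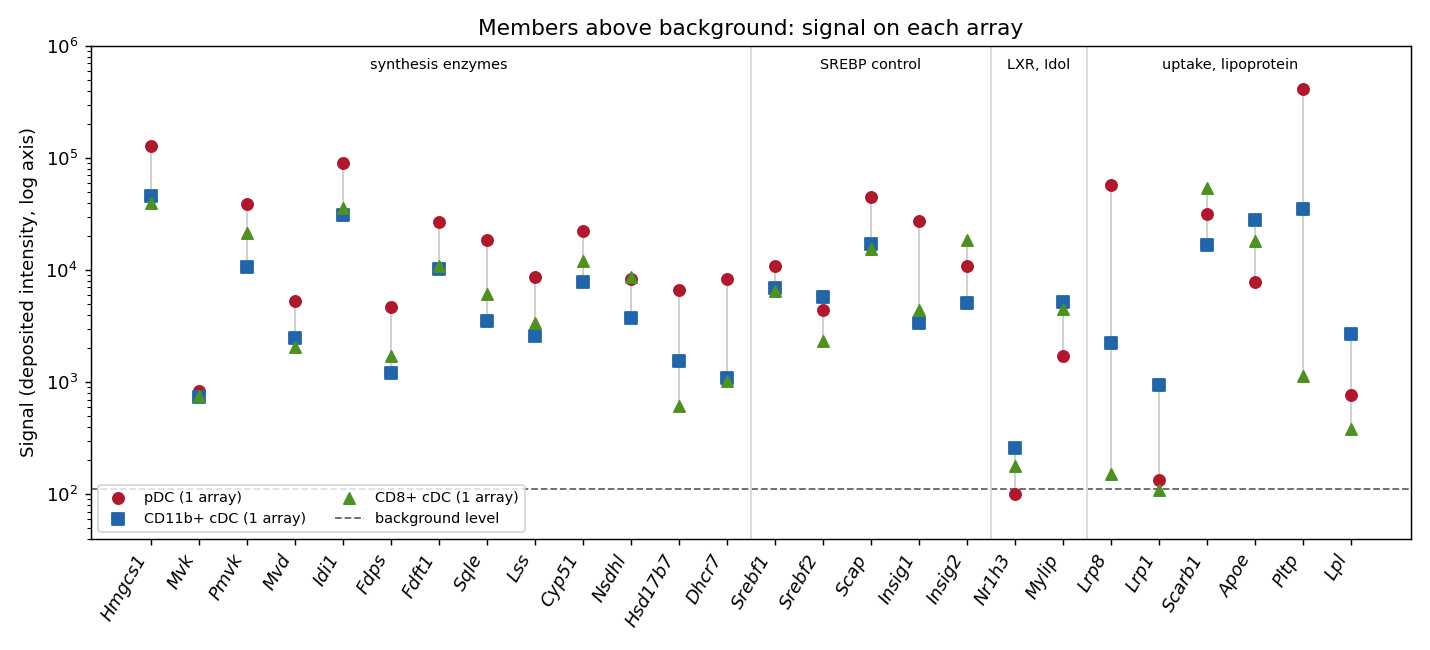
Signal of each of the 26 members above background (vertical log axis, deposited intensity) on the pDC array (red circles), the CD11b+ cDC array (blue squares) and the CD8+ cDC array (green triangles), with the background level of 111 as a dashed line and grey lines spanning the 3 values. The pDC circle stands above both other marks for most synthesis enzymes, for Insig1 and Scap and, by the widest gaps, for Lrp8 and Pltp, and below both for Apoe and Mylip.

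Among enzymes, 12 of 13 measured were higher in pDC than in CD11b+ cDC (15.0% of all genes). Against CD8+ cDC, 9 of 13 were higher in pDC (16.0% of all genes). In either comparison 0 enzymes were lower (14.3% and 14.8% of all genes). Their median differences were 2.90-fold and 2.57-fold. Scaled on spike-ins, 10 of the 13 were higher in pDC than in CD11b+ cDC, against 10.7% of all genes. Against CD8+ cDC, 11 were then higher, beside 33.7% of all genes, and 0 were lower in either comparison (19.9% and 9.73% of all genes). With probe sets averaged the counts of higher enzymes were 9 and 6 of 13 (11.5% and 12.6% of all genes). At a 3-fold rule they were 6 and 3 (8.44% and 9.56%). Under either change 0 were lower (11.8% and 12.2% of all genes when averaged, 9.34% and 9.63% at 3-fold). Amplified RNA of a bulk sort cannot tell more cells with a transcript from more transcript per cell.

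The early, mevalonate part of the pathway begins with Hmgcs1, the synthase that makes HMG-CoA. Hmgcs1 gave a signal of 126719.7 in pDC against 45981 in CD11b+ cDC and 39609.5 in CD8+ cDC. The pDC array was thus 2.76-fold and 3.20-fold above the cDC arrays, and the other 4 probe sets of the gene gave 3.02-fold to 3.48-fold and 2.69-fold to 3.85-fold. Pmvk, the kinase that phosphorylates phosphomevalonate, gave 39105 in pDC against 10732 in CD11b+ cDC and 21385 in CD8+ cDC. It was 3.64-fold higher in pDC than in CD11b+ cDC, whereas its 1.83-fold difference from CD8+ cDC did not reach the rule. Mvd, the decarboxylase that forms isopentenyl diphosphate, gave 5337, 2488 and 2061.5 on the pDC, CD11b+ cDC and CD8+ cDC arrays. Its differences of 2.15-fold and 2.59-fold were repeated by the second probe set at 2.08-fold and 2.49-fold.

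Mvk, mevalonate kinase, was the 1 listed enzyme that reached 2-fold in neither comparison at its brighter probe set. That probe set gave 840.5 in pDC against 737 in CD11b+ cDC and 755 in CD8+ cDC, a difference of 1.14-fold and 1.11-fold. The dimmer probe set gave 602, 229 and 235, which is 2.63-fold and 2.56-fold, so that the 2 probe sets of this gene disagreed.

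Idi1, the isomerase that makes dimethylallyl diphosphate, opens the isoprenoid part of the pathway. Its signals were 89499.5 in pDC against 30846 in CD11b+ cDC and 35832.5 in CD8+ cDC, so pDC stood 2.90-fold and 2.50-fold above the cDC arrays. Fdps, the synthase of farnesyl diphosphate, gave 4644, 1200.2 and 1721.5 on the pDC, CD11b+ cDC and CD8+ cDC arrays (3.87-fold and 2.70-fold). Fdft1, squalene synthase, commits farnesyl diphosphate to sterols. It gave 27008 in pDC against 10146 in CD11b+ cDC and 10803 in CD8+ cDC, or 2.66-fold and 2.50-fold, and its second probe set gave 2.83-fold and 2.53-fold. In these 3 genes the cDC arrays lay closer to each other than to pDC.

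Of the enzymes that form and trim the sterol ring, Sqle, squalene monooxygenase and a rate-limiting step, gave 18393 in pDC against 3521 in CD11b+ cDC and 6159 in CD8+ cDC. It was 5.22-fold and 2.99-fold higher in pDC. Lss, which closes the ring to lanosterol, gave 8603, 2594 and 3345 on the pDC, CD11b+ cDC and CD8+ cDC arrays (3.32-fold and 2.57-fold). Cyp51, the lanosterol demethylase, gave 22122 in pDC against 7888 in CD11b+ cDC and 12156 in CD8+ cDC. Its difference from CD11b+ cDC was 2.80-fold, while that from CD8+ cDC was 1.82-fold at this probe set and 2.39-fold at the second.

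Dhcr7, which carries out the final reduction to cholesterol, showed the largest difference from CD11b+ cDC among the listed enzymes. Its signals were 8266 in pDC against 1099 in CD11b+ cDC and 1023 in CD8+ cDC, which is 7.52-fold and 8.08-fold. Hsd17b7, a keto-steroid reductase of the demethylation steps, had the largest difference from CD8+ cDC. It gave 6599.8 in pDC against 1552.5 in CD11b+ cDC and 607 in CD8+ cDC, or 4.25-fold and 10.9-fold. This value rests on a probe set of the _x_at class, whose probes can also match other transcripts, and the other 3 probe sets of the gene lay at background on all arrays. Nsdhl, the sterol dehydrogenase that works beside Hsd17b7, did not follow the rest. It gave 8283 in pDC against 3746.5 in CD11b+ cDC and 8590.1 in CD8+ cDC, so that pDC and CD8+ cDC differed 1.04-fold and both stood above CD11b+ cDC. The difference of pDC from CD11b+ cDC was 2.21-fold with the deposited values and 0.79 (log2) with spike-in scaling.

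**Figure D2:**
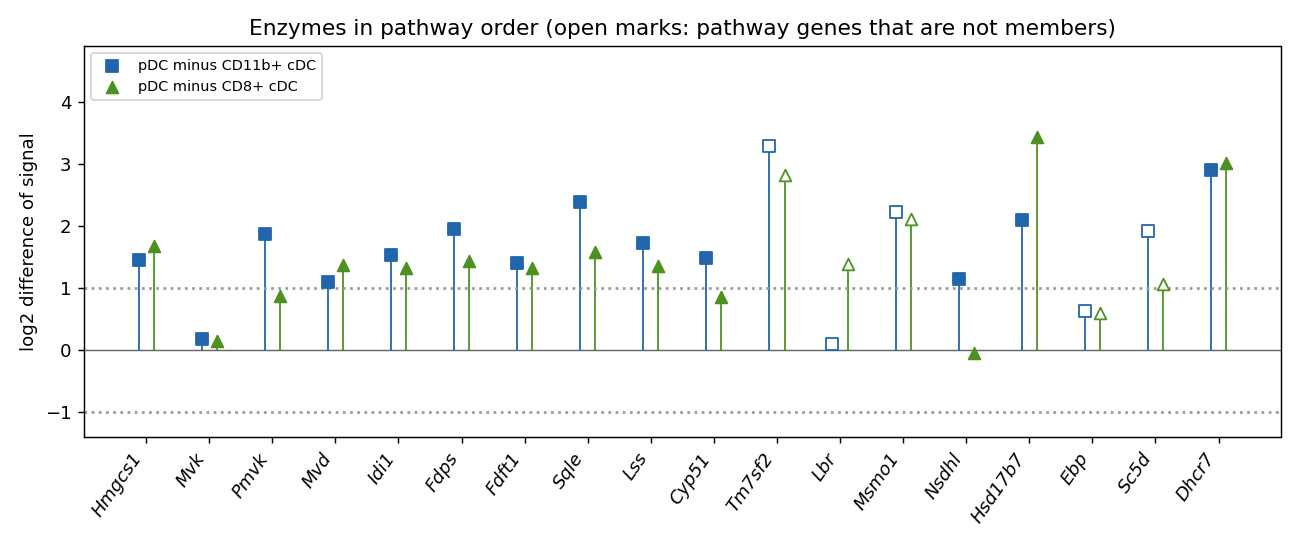
Log2 difference of signal for pDC minus CD11b+ cDC (blue squares) and pDC minus CD8+ cDC (green triangles), with enzymes of cholesterol synthesis from left to right in pathway order. Filled marks are listed members, open marks are other enzymes of the pathway, and dotted lines mark 2-fold. All blue squares lie above 0, from 0.10 for Lbr to 3.29 for Tm7sf2, and Nsdhl is the only green triangle below 0, at -0.05.

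Other sterol pathway genes, from a list of 18 of which 11 had a probe set, also lay higher in pDC on the deposited scale. All 11 differences were above 0 in both comparisons (medians 0.63 and 1.07, log2). Higher in pDC were 5 genes against CD11b+ cDC (15.0% of all genes) and 6 against CD8+ cDC (16.0%), and 0 were lower (14.3% and 14.8%). With spike-in scaling 5 and 7 were higher (10.7% and 33.7% of all genes) and 0 lower (19.9% and 9.73%). However, 4 of the 11 differences from CD11b+ cDC then lay below 0. Tm7sf2, a sterol C-14 reductase, gave 3459 in pDC against 354 in CD11b+ cDC and 489 in CD8+ cDC (9.77-fold and 7.08-fold). Msmo1, the methyl sterol monooxygenase, was 4.67-fold and 4.36-fold higher in pDC, and Sc5d, a desaturase near the end of the pathway, 3.78-fold and 2.11-fold. Mbtps2, the protease that cuts SREBPs free in the Golgi, was 3.24-fold and 2.49-fold higher. Lbr, a nuclear envelope protein that also has C-14 reductase activity, differed 1.07-fold from CD11b+ cDC and was 2.63-fold higher than in CD8+ cDC.

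The promoters of the enzymes were compared because these genes are textbook SREBP targets, and SREBPs are known to act on sterol response elements beside NF-Y and Sp1 sites. RefSeq windows from 250 bases before to 50 after the start site (GRCm38.p6) were matched for 26 of the 31 members, 40 windows in all since some genes have several starts. Windows of Fdft1, Fdps, Sqle, Scarb1 and Lpl were not used here. The 250 bases before the start are shown for Hmgcs1 as the pathway's entry (chr13:119690101-119690350, plus strand), for Idi1 as an enzyme higher in pDC than on both cDC arrays (chr13:8885356-8885605, plus strand) and for Mvk as the enzyme that missed the rule at its brighter probe set (chr5:114444019-114444268, plus strand). Capitals mark CCAAT, the NF-Y motif, on either strand (ATTGG on the other), and TCACNCCAC, a consensus of the sterol response element.
Hmgcs1: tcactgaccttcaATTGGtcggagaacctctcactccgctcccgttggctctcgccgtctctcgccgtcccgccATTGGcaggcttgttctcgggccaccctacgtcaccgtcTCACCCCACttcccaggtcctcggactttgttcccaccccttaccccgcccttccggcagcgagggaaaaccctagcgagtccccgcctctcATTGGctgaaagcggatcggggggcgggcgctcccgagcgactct
Idi1: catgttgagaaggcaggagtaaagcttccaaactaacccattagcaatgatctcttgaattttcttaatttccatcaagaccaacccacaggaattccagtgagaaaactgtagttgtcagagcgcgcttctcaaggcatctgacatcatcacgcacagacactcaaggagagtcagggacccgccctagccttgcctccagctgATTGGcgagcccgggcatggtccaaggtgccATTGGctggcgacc
Mvk: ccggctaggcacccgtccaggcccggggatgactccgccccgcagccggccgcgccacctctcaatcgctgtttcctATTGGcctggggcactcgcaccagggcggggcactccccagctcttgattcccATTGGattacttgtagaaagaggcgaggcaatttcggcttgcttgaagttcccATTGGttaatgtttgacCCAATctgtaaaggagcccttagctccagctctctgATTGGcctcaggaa

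The Hmgcs1 stretch holds the sterol response element consensus starting 137 bases before the start site, with CCAAT matches starting 237, 176 and 45 bases before it. The Idi1 stretch holds 2 CCAAT matches and the Mvk stretch 5, more than that of Hmgcs1. Of the 14 windows of synthesis enzymes, CCAAT was present in 71.4%, against 37.4% of all 32851 promoter windows of this length, and GGGCGG, the Sp1 motif, in 78.6% against 35.7%. The consensus TCACNCCAC was present in 1 of the 14 windows, against 1.24% of all windows, and CACGTG, the E box that SREBPs can also bind, in 14.3% against 7.15%. Both strands were searched, and a base could count toward more than 1 motif. These are matches of letters, counted over all promoters whether or not their gene was above background, and whether a factor bound there was not measured.

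Among the genes that control SREBPs, the transcription factors themselves were not called between pDC and a cDC subset on the deposited scale. Srebf1, whose SREBP-1 protein favours fatty acid genes, gave 10982 in pDC against 6903 in CD11b+ cDC and 6475 in CD8+ cDC, which is 1.59-fold and 1.70-fold and below the rule. Srebf2, whose SREBP-2 protein favours cholesterol genes, gave 4402, 5744.5 and 2349 on the pDC, CD11b+ cDC and CD8+ cDC arrays. It was 2.45-fold higher in CD11b+ than in CD8+ cDC (1.85-fold at its second probe set), with pDC between them. With spike-in scaling both passed the rule against CD8+ cDC, at 1.40 for Srebf1 and 1.55 for Srebf2 (log2).

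Insig1, which retains Scap in the endoplasmic reticulum and is itself an SREBP target, gave 27461 in pDC against 3402 in CD11b+ cDC and 4378 in CD8+ cDC. It was 8.07-fold and 6.27-fold higher in pDC, a wider difference from CD11b+ cDC than that of any listed enzyme. Scap, the escort protein, gave 45211 in pDC against 17197 in CD11b+ cDC and 15561 in CD8+ cDC (2.63-fold and 2.91-fold). Insig2, the relative of Insig1, had another order. It was brightest in CD8+ cDC at 18715.5, with 10805 in pDC and 5124 in CD11b+ cDC, and all 3 of its probe sets gave this order. CD8+ cDC stood 3.65-fold above CD11b+ cDC and pDC 2.11-fold above it, while CD8+ cDC and pDC differed 1.73-fold. With spike-in scaling both of these Insig2 calls fell under 2-fold, at 0.87 and 0.72 (log2).

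**Figure D3:**
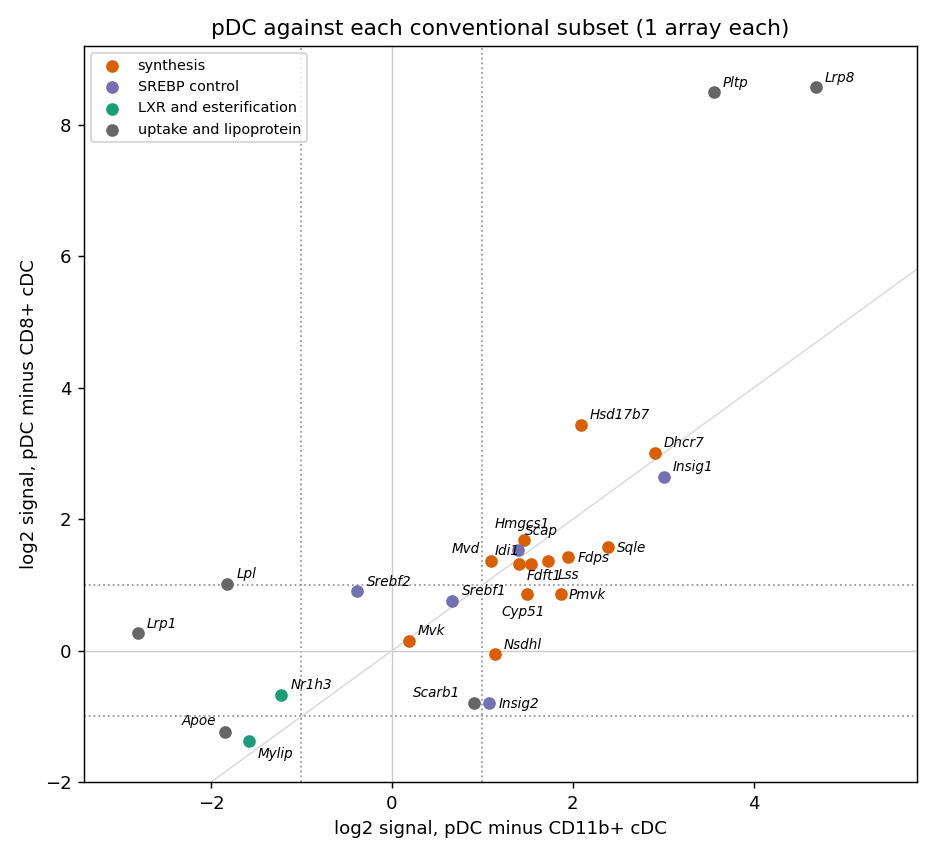
Each point is 1 of 26 members, with the log2 difference of pDC minus CD11b+ cDC on the horizontal and of pDC minus CD8+ cDC on the vertical axis. Colours give the role, dotted lines mark 2-fold, and the axes share the pDC array. Synthesis enzymes sit mostly between 1 and 3 on both axes, Lrp8 and Pltp lie far above at 8.57 and 8.50 on the vertical axis, and Apoe and Mylip lie below -1 on both.

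Lipoprotein uptake and transfer genes gave the widest differences of all members. Lrp8, the apolipoprotein E receptor 2 that also binds reelin, gave 57436 in pDC against 2229.9 in CD11b+ cDC and 151 in CD8+ cDC. The 3 arrays were thus stepped, with pDC 25.8-fold above CD11b+ cDC and CD11b+ cDC 14.8-fold above CD8+ cDC. The second probe set gave 17066, 653 and a value at background on the pDC, CD11b+ cDC and CD8+ cDC arrays, and at the third only pDC was above background, at 415. Pltp, the phospholipid transfer protein that moves lipid between lipoproteins, had the same order. It gave 411198 in pDC against 34782 in CD11b+ cDC and 1134 in CD8+ cDC, so pDC stood 11.8-fold above CD11b+ cDC, which stood 30.7-fold above CD8+ cDC. Its second probe set gave 11.4-fold and 77.2-fold for the same steps.

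Apoe ran the other way, with 7767 in pDC against 27747 in CD11b+ cDC and 18287 in CD8+ cDC. It was 3.57-fold lower in pDC than in CD11b+ cDC and 2.35-fold lower than in CD8+ cDC, and the latter difference came to -0.60 (log2) with spike-in scaling. Lpl, the lipase that frees fatty acids from lipoproteins, gave 767 in pDC against 2711 in CD11b+ cDC and 378 in CD8+ cDC. CD11b+ cDC was 3.53-fold and 7.17-fold above the other arrays, and pDC was 2.03-fold above CD8+ cDC. None of these 3 Lpl calls was made at its dimmer second probe set, where CD11b+ cDC was at least 1.92-fold above pDC and 1.48-fold above CD8+ cDC, and the direction of pDC against CD8+ cDC turned (-0.37, log2). Lrp1, a large scavenging receptor of the same family as Lrp8, was measured well only in CD11b+ cDC. Its brighter probe set gave 939.7 there and 134 in pDC, with CD8+ cDC at background, which makes CD11b+ cDC 7.02-fold higher than pDC and at least 8.45-fold higher than CD8+ cDC. Its second probe set gave 261 in CD11b+ cDC and 119 in CD8+ cDC, with pDC at background, and smaller differences of at least 2.35-fold and 2.20-fold. Scarb1, the receptor for high-density lipoprotein, was brightest in CD8+ cDC at 54375.5, with 31457 in pDC and 16797 in CD11b+ cDC. CD8+ cDC stood 3.24-fold above CD11b+ cDC (0.70, log2, with spike-in scaling), and pDC differed less than 2-fold from each. Vldlr, the very low-density lipoprotein receptor, was at background on all arrays at all 6 of its probe sets.

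Apoe, Lpl and Lrp1 are also abundant in macrophages, and the CD11b+ cDC array, where each was brightest, carried the most macrophage signal. Of 17 measured macrophage markers 10 were brightest there, 2 in pDC and 4 in CD8+ cDC. The summed signal of all 17 was 320891 in CD11b+ cDC, 131936 in pDC and 150475 in CD8+ cDC. Adgre1 and Csf1r, at 70516 and 64906 in CD11b+ cDC, were the largest parts of the sum there. Cd163 went the other way, with 1987 in pDC against 600 in CD11b+ cDC and 616 in CD8+ cDC. Cd68 was brightest in pDC, and Vcam1, Spic and Hmox1 in CD8+ cDC. C1qb gave 21318 in CD11b+ cDC, 6814 in pDC and 9451 in CD8+ cDC, and C1qa 1650.3, 380.1 and 366.5 in the same order. Timd4, a marker of resident macrophages, lay at background on all. The 7 measured neutrophil markers summed to 17142 in CD11b+ cDC, 2921 in pDC and 1621 in CD8+ cDC. The part of such cells in these differences was not tested.

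On the LXR side, Nr1h3, the gene of LXR alpha, was dim, with 258 in CD11b+ cDC, 177 in CD8+ cDC and a value at background in pDC. CD11b+ cDC was at least 2.32-fold above pDC, which became -0.22 (log2, pDC minus CD11b+ cDC) with the background level doubled. Mylip, encoding Idol, an LXR target that degrades lipoprotein receptors, gave 1723 in pDC against 5152 in CD11b+ cDC and 4489 in CD8+ cDC. It was 2.99-fold and 2.60-fold lower in pDC, and the difference from CD8+ cDC came to -0.74 (log2) with spike-in scaling. Ch25h, which makes the oxysterol 25-hydroxycholesterol and is known as an interferon-induced gene, was at background on all arrays.

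**Figure D4:**
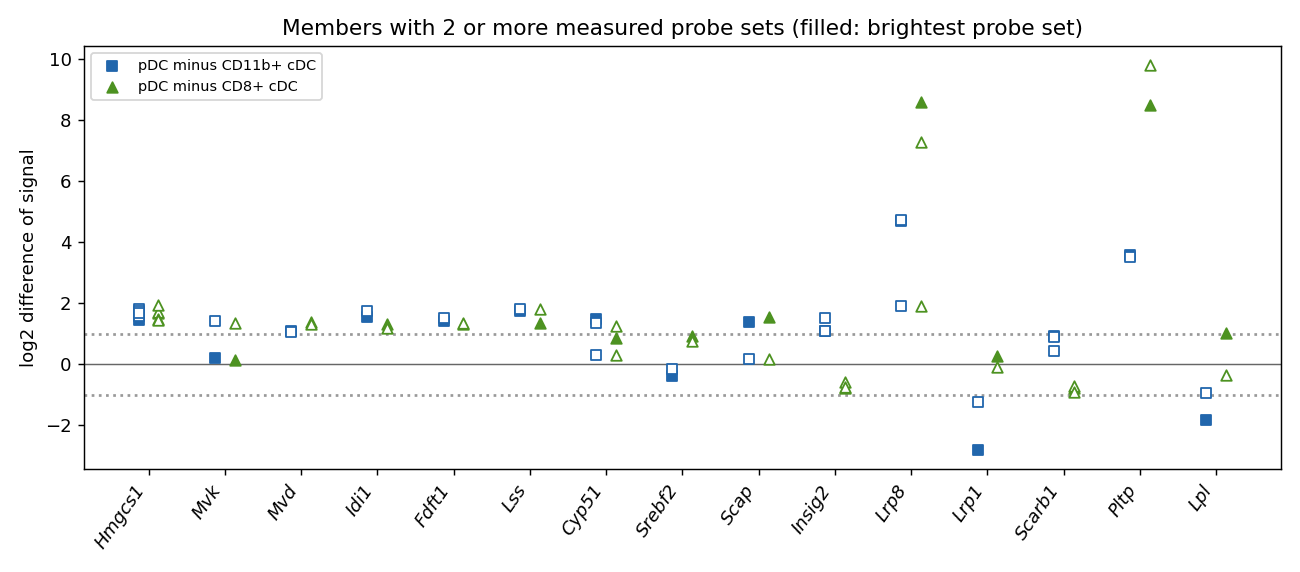
Log2 differences at every measured probe set of the 15 members with 2 or more, for pDC minus CD11b+ cDC (blue squares) and pDC minus CD8+ cDC (green triangles). Filled marks are the brightest probe set and dotted lines mark 2-fold. Marks of Hmgcs1, Mvd, Idi1, Fdft1 and Lss lie close together above 1, Mvk and Scap have 1 probe set above and 1 below 1, and Lpl changes sign in the comparison with CD8+ cDC.

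The probe sets of a gene mostly gave the same direction. Of 15 members with 2 or more measured probe sets, 15 had the same sign at every one for pDC against CD11b+ cDC and 13 for pDC against CD8+ cDC, the others being Lrp1 and Lpl. All probe sets passed 2-fold for 9 and 7 of them. Probe sets at background on both arrays of a comparison were left out. Where only pDC was above background, as at a dimmer probe set of Scap, Lss and Lrp8, the sign was fixed by that. The agreement of signs is therefore in part built in. The dimmer probe set of Scap, at 126 in pDC and at background in both cDC subsets, could show no more than at least 1.13-fold.

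Between the cDC subsets, synthesis genes passed 2-fold at a rate near that of all genes on the deposited scale. Of 13 enzymes, 1 was higher in CD8+ cDC (Nsdhl, 2.29-fold) and 1 in CD11b+ cDC (Hsd17b7, 2.56-fold). Among all genes these shares were 9.86% and 10.3%. The median log2 difference of the enzymes was 0.22 for CD8+ minus CD11b+ cDC. With spike-in scaling 0 enzymes were higher in CD8+ cDC (3.88% of all genes) and 4 were higher in CD11b+ cDC (45.4% of all genes). Pmvk came close to the rule at 1.99-fold toward CD8+ cDC. Over all members, 3 were higher in CD8+ cDC (9.86% of all genes) and 6 in CD11b+ cDC (10.3% of all genes), and 4 of those 6 were the lipoprotein genes Lrp8, Lrp1, Pltp and Lpl. The split depends on the scaling: 49.0% of all calls between the cDC subsets were toward CD8+ cDC on the deposited scale and 7.87% with spike-in scaling, where 0 members were higher in CD8+ cDC (3.88% of all genes) and 14 of 26 were higher in CD11b+ cDC (45.4% of all genes), which is near the share of all genes. For pDC against CD11b+ cDC, pDC held 51.2% of all calls and 34.8% with spike-in scaling, and against CD8+ cDC 51.9% and 77.6%.

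Other genes of lipoprotein uptake split between the subsets. Of 20 measured, 14 were above background in pDC or CD11b+ cDC, and 4 were higher in pDC and 2 lower (15.0% and 14.3% of all genes). With spike-in scaling 3 were higher and 2 lower (10.7% and 19.9% of all genes). Against CD8+ cDC, 4 of 12 were higher in pDC and 2 lower (16.0% and 14.8% of all genes). With spike-in scaling this was 6 and 2 of 11 (33.7% and 9.73% of all genes). Apobr, a receptor for apolipoprotein B48, gave 1142 in pDC against 27719 in CD11b+ cDC and 39661 in CD8+ cDC, so that pDC was 24.3-fold and 34.7-fold lower. Cd36, a scavenger receptor for oxidised lipoprotein and fatty acids, gave 73733 in CD8+ cDC against 1602 in pDC and 743 in CD11b+ cDC. Lrpap1, the chaperone of the Lrp8 receptor family, was 2.68-fold higher in pDC than in CD11b+ cDC (1.72-fold against CD8+ cDC), Scarb2, a lysosomal relative of Scarb1, 3.89-fold and 2.41-fold, and Lmf1, which matures lipases, 3.24-fold and 2.93-fold. Reln, the reelin ligand of Lrp8, and Dab1, the adaptor that Lrp8 signals through in neurons, were singled out after their values were seen, and both lay at background on all arrays.

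Genes of sterol export, storage and oxysterols also went both ways. Of 17 above background, 5 were higher and 2 lower in pDC than in CD11b+ cDC (15.0% and 14.3% of all genes). Against CD8+ cDC, 6 were higher in pDC and 5 lower (16.0% and 14.8% of all genes). With spike-in scaling these counts were 4 and 4 (10.7% and 19.9% of all genes), and 9 and 2 of 16 (33.7% and 9.73%). Nceh1, a cholesteryl ester hydrolase, gave 37794 in pDC against 2182.5 in CD11b+ cDC and 1127.5 in CD8+ cDC (17.3-fold and 33.5-fold), and Npc1, which moves cholesterol out of lysosomes, was 4.23-fold and 12.9-fold higher in pDC. Cyp7b1, an oxysterol hydroxylase, was at least 8.96-fold and 4.57-fold higher in pDC. Lipa, the lysosomal acid lipase, was 2.04-fold and 3.34-fold lower in pDC, and Abcg1, an LXR-induced sterol exporter, was 2.68-fold lower in pDC than in CD8+ cDC (1.88-fold against CD11b+ cDC). With spike-in scaling Abcg1 was called against CD11b+ cDC and not against CD8+ cDC. Gpr183, the receptor that steers CD11b+ cDC by oxysterols, gave 20966 in CD11b+ cDC, 10729 in pDC and 1052 in CD8+ cDC. Hsd3b7, which degrades the Gpr183 ligand, had the reverse order at the ends, with 25132 in CD8+ cDC against 5433 in pDC and 2589 in CD11b+ cDC.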

How the data were processed

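The deposited values are intensities on a linear scale, 1 per probe set and array, and the submitters' processing notes name MAS5 with no version. How the arrays were scaled to each other is not given in the sources used. Of 45101 probe sets, 34958 name 1 gene in the platform's annotation. All 62 member probe sets kept their symbol when matched by gene number to a RefSeq table of GRCm38.p6.

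From these values, with Python 3.11.15 and pandas 2.3.3, signals were floored at background (the 95th percentile of the receptor probe sets, on the highest array), log2 was taken, and each gene was read at its probe set of highest mean. Calls needed 2-fold. No test was run, since each group has 1 array, and the number of arrays limits the precision. The call rule was run on simulated data with planted changes well above 2-fold in bright genes and little noise. That run checks the code and not the calls made here. Members called 2-fold in any pair whose brightest array reached 4 times background are given in full, and up to 4 genes per direction of each other list. The members, gene lists, roles and marker lists were chosen with earlier results of these data known. Alternatives were the mean over probe sets, the second probe set, a doubled floor, no floor, spike-in scaling (18 probe sets), quantile normalization and a 3-fold rule.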

Additional observations from a re-analysis of the deposited data

How the results depend on the processing

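The median difference of the members kept its sign for pDC against each cDC subset under every alternative run. Only some members have a second brightest probe set. Read there, 10 of 15 members were higher and 1 lower in pDC than in CD11b+ cDC (13.9% and 12.8% of all genes). Against CD8+ cDC, 9 were higher in pDC and 0 lower (14.5% and 13.6%), and 3 of 13 were lower in CD8+ than in CD11b+ cDC (9.36%). At the second probe set the Lpl difference of pDC and CD8+ cDC turned to -0.37 (log2). With probe sets averaged, 13 of 26 members were higher in pDC than in CD11b+ cDC (11.5% of all genes) and 9 than in CD8+ cDC (12.6%). At 3-fold, 9 were higher and 3 lower in pDC than in CD11b+ cDC (8.44% and 9.34% of all genes), and 6 were higher and 0 lower than in CD8+ cDC (9.56% and 9.63%). With spike-in scaling 0 were lower in pDC than in CD8+ cDC (9.73% of all genes), 0 were higher (3.88%) and 14 lower (45.4%) in CD8+ than in CD11b+ cDC, and the median of the latter was -1.09, against -0.95 over all genes. Single member values moved by less than the spread between probe sets in 137 of 145 recomputed for pDC against CD11b+ cDC, 134 of 141 against CD8+ cDC and 111 of 143 between the cDC subsets. These counts are a weak check of stability, because several alternatives could hardly move most values. Changing the floor leaves signals far above it as they were, and averaging does not alter members with 1 probe set. Spike-in scaling shifts genes far above background by the same amount within a comparison. No paired analysis was possible because each group has 1 array. Signals near the background level of 111, as for Nr1h3, Lrp1 and Lrp8 in CD8+ cDC, give folds that depend on that level. Elovl6 in CD11b+ cDC was also near it.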

Other observations

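Fatty acid synthesis genes are the other branch driven by SREBPs. Of 14 above background, 3 were higher and 0 lower in pDC than in CD11b+ cDC (15.0% and 14.3% of all genes), and 2 were higher and 3 lower than in CD8+ cDC (16.0% and 14.8% of all genes; median log2 differences 0.10 and 0.07). With spike-in scaling the counts were 3 and 0 (10.7% and 19.9% of all genes), and 6 and 2 (33.7% and 9.73%), and the medians -0.21 and 0.64. The 3 genes called higher in pDC than in CD11b+ cDC were the desaturases Fads2 and Fads1 and the elongase Elovl6. The elongases Elovl1 and Elovl5 did not follow. Their log2 differences from CD11b+ cDC and CD8+ cDC were -0.13 and -0.49 for Elovl1, and -0.21 and 0.25 for Elovl5. Fads2, a desaturase, gave 14891 in pDC against 201 in CD11b+ cDC and 448 in CD8+ cDC, or 73.9-fold and 33.2-fold. Elovl6 gave 5748, 120 and 945 on these arrays, or 48.0-fold and 6.08-fold. Its value in CD11b+ cDC lay near the background level of 111, so the size of the first fold is uncertain. Fads1, the desaturase that acts after Fads2, was 9.77-fold higher in pDC than in CD11b+ cDC and 1.46-fold above CD8+ cDC.

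CD8+ cDC had the highest signals of Acss2, Fasn and Scd1, which in this order supply acetyl-CoA, build saturated fatty acids and desaturate them. Fasn gave 17439 there, 7581 in CD11b+ cDC and 4875 in pDC. Scd1 gave 1585 there and 133 in CD11b+ cDC and was at background in pDC, so CD8+ cDC was at least 14.3-fold above pDC. Between the cDC subsets 7 of the 14 genes were higher in CD8+ cDC and 0 lower on the deposited scale (9.86% and 10.3% of all genes), against 3 higher and 3 lower with spike-in scaling (3.88% and 45.4%), where Scd1 was still higher in CD8+ cDC and Fasn and Acss2 were not called.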
